A study of Homo sapiens with 6 samples.

Results

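The genes that make, break down, carry and sense prostaglandin E2 were examined on 6 Affymetrix arrays of PC3, a cell line grown out of a bone metastasis of a human prostate cancer. The 10 genes were PTGS1, PTGS2, PTGES, PTGES2, PTGES3, HPGD, PTGER2, PTGER4, ABCC4 and SLCO2A1. They were taken by name, through every probe set annotated to 1 of these symbols alone, which gave 17 of the 19064 single-gene probe sets (10 of 11963 genes). The set was selected on measured values, the intensity differences between the same arrays, with that of PTGS2 already known, so the values of its members are a description and carry no test. The 3 arrays of the control group (replicates 1 to 3) came from cells titled wild type whose source label names the vector alone, and the 3 of the other group (replicates 4 to 6) from cells said to overexpress human PSMA, the surface peptidase encoded by FOLH1, from a pLNCX plasmid. By the protocol, both received plasmid DNA (3 µg with 2 µg of FuGENE 6 for 30 min), recovered for 72 h and were selected with puromycin in RPMI medium. The labels do not say whether the selected cells were a clone or a pool, nor whether the replicates were separate cultures, so the SDs and p-values below cover the spread between these arrays, which may be technical. In bulk RNA, fewer cells that express a gene and less RNA per cell cannot be told apart.

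Prostaglandin E2 is made from arachidonic acid, which phospholipases free from membrane lipids. The cyclooxygenases PTGS1 and PTGS2 turn it into prostaglandin H2, and the terminal synthases PTGES, PTGES2 and PTGES3 turn that into prostaglandin E2. The lipid leaves the cell partly through ABCC4 and is taken up again through SLCO2A1, after which HPGD oxidises it to an inactive product. Outside the cell it is sensed by 4 receptors, of which EP2 (PTGER2) and EP4 (PTGER4) raise cyclic AMP through the Gs protein. PTGS2 is an inducible gene, and in many epithelial tumours a high PTGS2 level goes with a low HPGD level.

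The signal of the transfected gene went against the labels. The brightest probe set of FOLH1, shared with its near-identical paralog FOLH1B, read 477, 417 and 548 on the arrays labelled control and 15.1, 8.58 and 13.7 on those labelled PSMA. Another probe set, which names only FOLH1, read 61.5, 59.7 and 60.4 against 24.4, 32.0 and 28.0. On both, the lowest control value exceeded the highest PSMA value, and whether the labels are exchanged was not tested. Every direction below follows the labels as deposited: "higher" means higher on the arrays labelled PSMA. Values are intensities in arbitrary units. All 6 epithelial and PC3 markers lay above the median of the table on every array, and their summed signal was 19861 to 20571 on arrays labelled control and 17342 to 17945 on arrays labelled PSMA. They did not move as one: KRT8, KRT18, EPCAM and CDH1 fell by 0.31, 0.40, 0.35 and 0.32 on the log2 scale, VIM rose by 0.30 (limma adjusted p = 0.00045), and KRT19 (-0.09) missed the threshold. The luminal markers KLK3 and KLK2, low in PC3 cells, read between 12.9 and 20.6. The 5 leucocyte markers measured summed to 65.7 to 68.0 and 65.8 to 76.3, and none lay above the table's median. The 6 stromal and endothelial markers summed to 156 to 165 and 138 to 148, and of these PECAM1 alone lay above the median on 3 arrays. LUM, a stromal proteoglycan gene, read 27.4 to 41.2 on arrays labelled control and 5.02 to 7.32 on those labelled PSMA. The others did not share this fall. CDH5 was slightly higher (6.17 to 6.67 against 6.92 to 7.48), and the groups overlapped for PECAM1, VWF, DCN and PDGFRB. The part of these markers in the results below was not tested. The correlation of log2 values over the probe sets of the table, a description with no test, was 0.9975 to 0.9981 for pairs of arrays in the same group and 0.9875 to 0.9879 for pairs from different groups.

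The inducible cyclooxygenase PTGS2, the prostaglandin-degrading enzyme HPGD and the receptor gene PTGER2 showed the largest differences of the set. PTGS2 read 16.3-fold lower and HPGD 5.64-fold to 6.28-fold lower on the arrays labelled PSMA, whereas PTGER2 read 4.23-fold higher. The PTGS2 values labelled PSMA lay near background, so its fold has no firm size: it was 9.0-fold with the table's 25th percentile as a floor for all values. The remaining 7 genes differed by less than 2-fold. Of the 17 probe sets, 12 had groups that did not overlap, 5 higher and 7 lower, beside 44.9% of all 22215 probe sets. The 6 probe sets with no overlap and at least a 2-fold difference belonged to these 3 genes, beside 2.67% of all probe sets. For the whole table, limma called 60.6% of the 11303 probe sets tested, and members were not counted by that test. The choice of genes used this comparison, so nothing is read from these counts. In the plot of values by array, 11 probe sets of 8 genes lie above the filter, which asks for 3 or more arrays above the table's median value (52.5). The 6 below it were the 3 of PTGS1, that of SLCO2A1 and the dimmer ones of PTGES and PTGER4. PTGS2 passed through the control group alone and PTGER2 through the PSMA group alone.

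**Figure D1:**
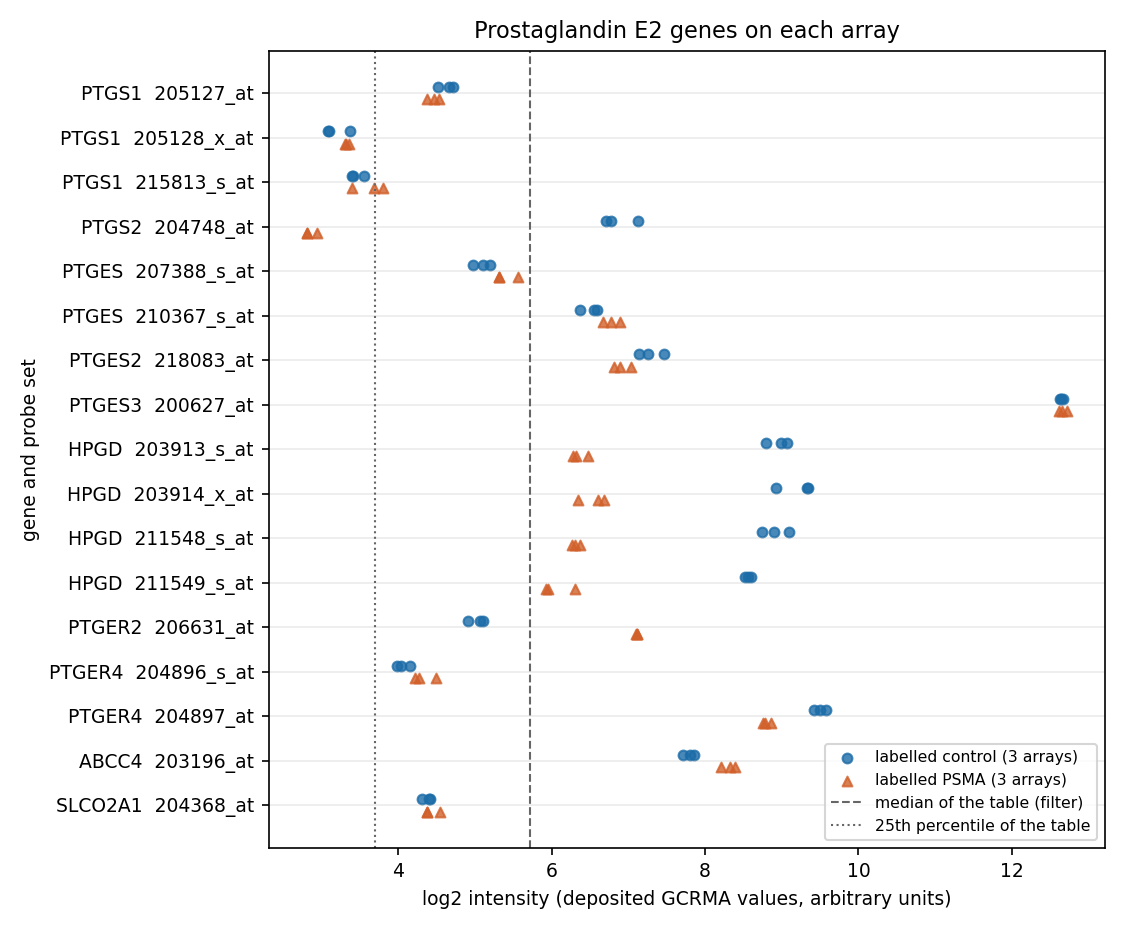
Log2 intensity (x axis, arbitrary units) of each of the 17 probe sets (y axis) on the 3 arrays labelled control (circles) and the 3 labelled PSMA (triangles), with the filter at the median of the table (dashed) and the 25th percentile (dotted). PTGS2 and the 4 HPGD probe sets separate to the left on arrays labelled PSMA, PTGER2 to the right, and PTGES3 overlaps.

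Promoter windows are shown for the 3 genes with the largest differences, because 2 of them read lower and 1 higher on the same arrays. RefSeq windows were found for 9 of the 10 genes. Each line gives the 250 bases before the annotated start, 5′ to 3′ on the gene's strand, on GRCh38.p14. Capitals mark matches, on both strands, to 5 short motifs: the cyclic AMP response half-site CGTCA, an NF-kB pattern (GGG, any 5 bases, CC), a C/EBP pattern TTNCGNAA (N is any base), the TATA box TATAAA and the GC box GGGCGG. The NF-kB pattern and the GC box can overlap. PTGS2 lies at chr1:186680424-186680673 (minus strand), HPGD at chr4:174522489-174522738 (minus strand) and PTGER2 at chr14:52314062-52314311 (plus strand).
PTGS2: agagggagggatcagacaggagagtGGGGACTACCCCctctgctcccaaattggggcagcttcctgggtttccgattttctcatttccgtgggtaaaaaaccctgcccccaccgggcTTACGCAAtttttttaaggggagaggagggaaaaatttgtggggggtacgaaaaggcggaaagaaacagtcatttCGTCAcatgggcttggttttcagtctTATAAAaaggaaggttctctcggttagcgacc
HPGD: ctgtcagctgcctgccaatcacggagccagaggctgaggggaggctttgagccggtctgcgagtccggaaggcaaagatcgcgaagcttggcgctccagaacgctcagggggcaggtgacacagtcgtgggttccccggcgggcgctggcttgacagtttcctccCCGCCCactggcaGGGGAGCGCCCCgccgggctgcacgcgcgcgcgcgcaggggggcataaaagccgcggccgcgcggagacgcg
PTGER2: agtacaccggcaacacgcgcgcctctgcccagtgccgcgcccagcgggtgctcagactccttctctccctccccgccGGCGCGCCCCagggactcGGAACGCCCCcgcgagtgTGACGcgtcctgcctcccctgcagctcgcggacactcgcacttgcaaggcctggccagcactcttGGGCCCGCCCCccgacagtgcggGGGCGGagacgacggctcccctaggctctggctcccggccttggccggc

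The PTGS2 window held the half-site 58 bases before the start, the C/EBP pattern 133 bases and the TATA box 32 bases before it, with the NF-kB pattern at 225 bases. It held no GC box. HPGD held a GC box 85 bases before its start and the NF-kB pattern at 72 bases. It had no half-site, no C/EBP pattern and no exact match to TATAAA. Its window does hold the letters CATAAA, which are close to TATAAA but were not searched for. PTGER2 held a half-site on the reverse strand 137 bases before its start, the NF-kB pattern at 173, 155 and 72 bases, and GC boxes at 68 and 49 bases, the first of which overlaps the NF-kB pattern. Of 35116 RefSeq windows of the same length, 21.2% held the half-site, 54.4% the NF-kB pattern, 2.18% the C/EBP pattern, 10.7% the TATA box and 42.6% the GC box on either strand. RefSeq lists another start of HPGD, whose window is not printed and held a half-site 77 bases before that start. A match says that these letters occur in the window, and no binding was measured here.

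Of the cyclooxygenases, PTGS2 carries the difference. Its only probe set (204748_at) read 140.1, 109.9 and 105 on the arrays labelled control, and 7.66, 6.99 and 6.99 on those labelled PSMA. The lowest control value was thus far above the highest of the other group, and replicates 5 and 6 held the same deposited value, under the 25th percentile of the table (13.0). The means were 118 ± 19.2 and 7.21 ± 0.388 (SD, n = 3), a log2 difference of -4.02 with an SE of 0.10. With the 25th percentile used as a floor for all values, the log2 difference was -3.17 (9.0-fold). With a pseudocount of 16 it was -2.52, close to the -2.46 of HPGD (203914_x_at) under the same setting, so the size of this gap, and its lead over HPGD, depend on how low values are handled.

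PTGS1, the cyclooxygenase that most tissues express at a steady level, stayed dim on its 3 probe sets. The brightest (205127_at) read 22.9, 26.1 and 25.2 on arrays labelled control and 20.7, 22.1 and 23.2 on arrays labelled PSMA. The second (205128_x_at) read 8.45, 8.56 and 10.3 against 9.93, 10.3 and 9.95, and the third (215813_s_at) 10.5, 11.7 and 10.6 against 10.5, 12.9 and 13.9. The groups overlapped on each of the 3, and the log2 differences ran from -0.17 to 0.18. At this signal a difference in PTGS1 could not be measured well.

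The terminal synthases differed little. PTGES, the inducible synthase that is often coupled to PTGS2, read 96.3, 93.6 and 82.4 on its brighter probe set (210367_s_at) on arrays labelled control and 109.6, 118 and 101 on arrays labelled PSMA, a log2 difference of 0.28 (SE 0.08). Its dimmer probe set (207388_s_at) read 31.5, 34.3 and 36.7 against 39.8, 39.6 and 47.3, a log2 difference of 0.30 (SE 0.09). On both, every array labelled PSMA lay above every array labelled control, opposite in direction to PTGS2 and about 1.2-fold in size (1.21-fold and 1.23-fold).

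PTGES2, a membrane-associated synthase, read 153, 140.5 and 177 on arrays labelled control and 119, 131 and 113 on those labelled PSMA. Its groups did not overlap, and the log2 difference was -0.37 (SE 0.09). PTGES3, which is also the HSP90 co-chaperone p23, read 6514, 6372 and 6328 against 6293, 6454 and 6725. Its groups overlapped, with a log2 difference of 0.02 (SE 0.04) whose sign turned without PSMA replicate 6 (-0.0070).

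HPGD, the 15-hydroxyprostaglandin dehydrogenase that starts the breakdown of prostaglandin E2, read lower on the arrays labelled PSMA on all 4 of its probe sets. The first (203914_x_at) read 643, 650.1 and 484 on arrays labelled control and 103, 97.7 and 81.3 on arrays labelled PSMA, with means of 592 ± 93.9 and 93.9 ± 11.3 (SD, n = 3). The second (203913_s_at) read 509, 538 and 444 against 79.5, 89.3 and 77.7. The groups lay far apart on both, and control replicate 3 was the lowest of its group.

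The other HPGD probe sets gave nearly the same picture. One (211548_s_at) read 477, 548 and 427 against 79.2, 83.0 and 77.0, again with control replicate 3 lowest. The other (211549_s_at) read 388, 366 and 378 against 60.9, 62.0 and 79.2, with control replicate 2 lowest and PSMA replicate 6 highest. The log2 differences were -2.65 (SE 0.13), -2.60 (SE 0.08), -2.60 (SE 0.09) and -2.50 (SE 0.10) in the order given. All values were above the median of the table on every array, so the floor at the 25th percentile left them as they were. The 4 probe sets report on 1 gene and are not replicates of each other. PTGS2 and HPGD, the genes for the making and the breakdown of the same lipid, thus both read lower on the same 3 arrays.

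The 2 cyclic AMP-linked receptors differed in opposite directions when PTGER4 was read from its brighter probe set. PTGER2, the gene of EP2, read 30.1, 34.4 and 33.5 on arrays labelled control and 137, 138 and 138 on arrays labelled PSMA (206631_at). The 3 values labelled PSMA were almost the same (SD 0.600), and no array of the control group reached the median of the table. The log2 difference was 2.08 (SE 0.06). PTGER4, the gene of EP4, read 761, 725 and 683 on its brighter probe set (204897_at) against 466, 441 and 431. Each array labelled PSMA lay below each control array, a log2 difference of -0.70 (SE 0.06), or 1.62-fold.

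The dimmer probe set of PTGER4 (204896_s_at) went the other way. It read 16.5, 17.8 and 15.8 on arrays labelled control and 22.5, 18.6 and 19.2 on arrays labelled PSMA, a log2 difference of 0.27 (SE 0.09), and lay below the filter on every array. The probe sets of PTGER4 thus disagree in direction.

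Of the transporters, ABCC4 read higher and SLCO2A1 was dim. ABCC4, an ATP-driven exporter of prostaglandins and cyclic nucleotides, read 232, 224 and 210.0 on arrays labelled control and 335, 321 and 296 on arrays labelled PSMA (203196_at). Its groups did not overlap, with means of 222 ± 11.1 and 317 ± 19.7 (SD, n = 3) and a log2 difference of 0.52 (SE 0.06), or 1.43-fold. SLCO2A1, the prostaglandin uptake carrier, read 21.4, 19.8 and 21.2 against 23.3, 20.7 and 20.7 (204368_at). Its groups overlapped, and its log2 difference was 0.05 (SE 0.07) on a probe set below the filter, with a sign that turned without PSMA replicate 4 (-0.0037).

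**Figure D2:**
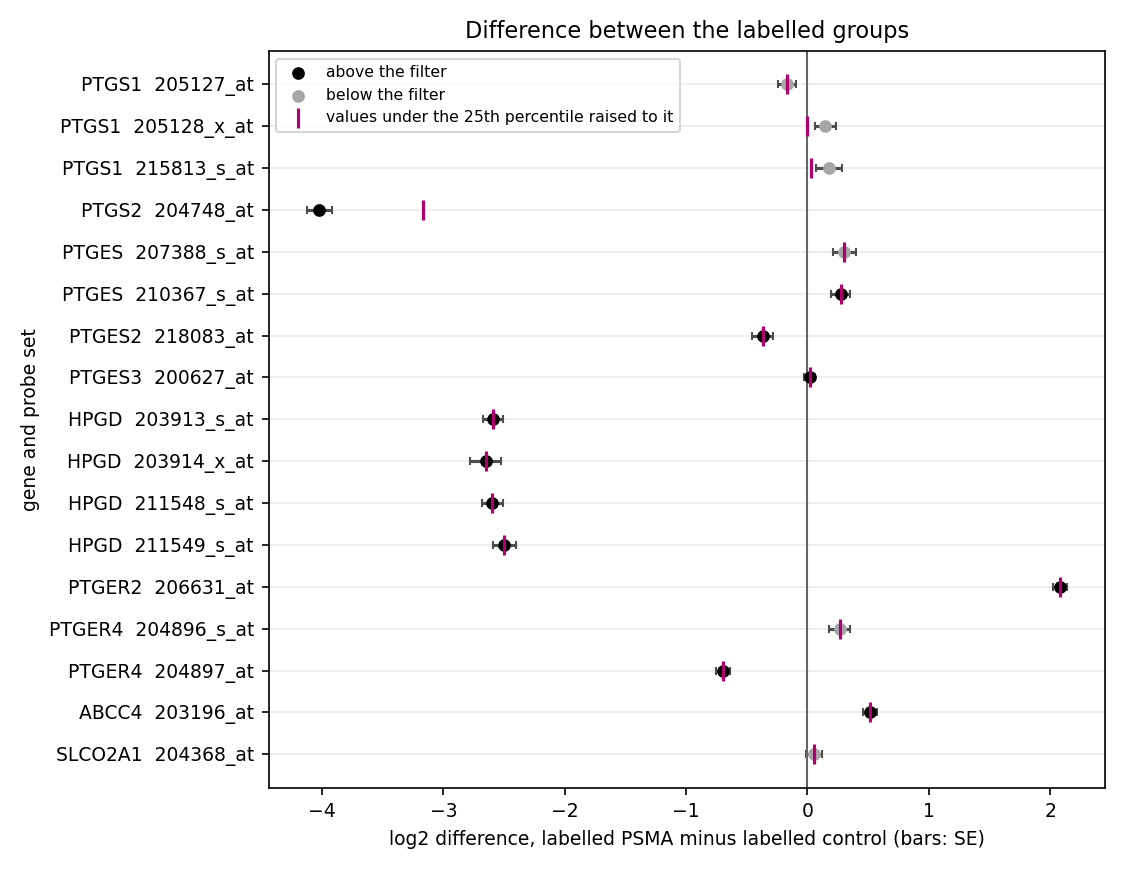
Log2 difference of each of the 17 probe sets (x axis, arrays labelled PSMA minus arrays labelled control, bars show the SE), black where the probe set passed the filter and grey where it did not, with the difference after raising values under the 25th percentile as a vertical tick. PTGS2 moves from -4.02 to -3.17 with that floor, while HPGD, PTGER2, PTGER4 and ABCC4 stay where they were.

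Earlier results on these arrays had shown stretches of neighbouring genes that shifted together, so each member was set beside the 5 tested genes on either side of it in RefSeq order. Genes were tested with limma, each through its brightest single-gene probe set, and 63.6% of 7035 genes passed an adjusted p of 0.05. Of all genes tested, 30.1% passed as higher and 33.5% as lower. Around ABCC4 on chromosome 13, 9 of 10 neighbours were higher on arrays labelled PSMA and none lower, with a median log2 difference of 0.69. Its nearest neighbours were TGDS (1.14) and DNAJC3 (0.35), so the 0.52 of ABCC4 lay within the range of its surroundings (0.08 to 1.15). Around PTGER2 on chromosome 14, 8 of 10 were higher and 1 lower, with a median of 0.35. RTRAF (0.91) and ERO1A (1.02) flanked it, and the highest neighbour, FERMT2, reached 1.81, below the 2.08 of PTGER2.

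PTGS2 stood against its surroundings. On chromosome 1, 8 of its 10 neighbours were higher on arrays labelled PSMA, with a median log2 difference of 0.49. The 2 lower ones were NIBAN1 (-0.21) and PLA2G4A (-1.33), the next tested gene, which encodes the cytosolic phospholipase that frees arachidonic acid. On the other side lay ODR4 (0.49). The neighbours of HPGD on chromosome 4 were mixed, with 2 higher, 2 lower and 6 that did not pass, a median of 0.01 (-0.03 without PSMA replicate 4), and SAP30 (0.02) and SPCS3 (0.03) beside it. For the other 6 members, the medians of the neighbours ran from -0.19 to -0.03; that of PTGER4 (-0.03) was -0.09 without PSMA replicate 4 and 0.05 without PSMA replicate 6. No copy number was measured here, and the part of these neighbourhoods in the members' differences was not tested.

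**Figure D3:**
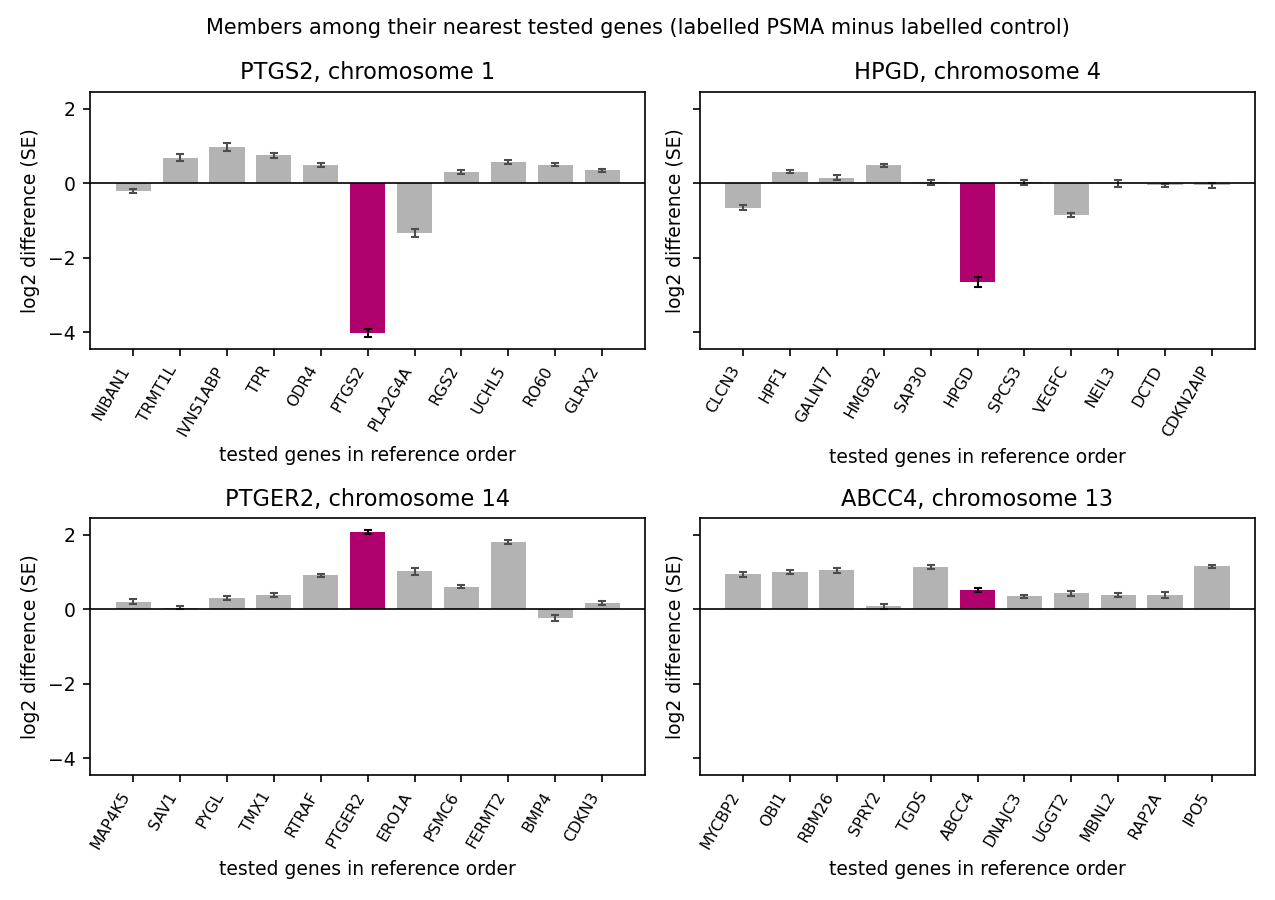
Log2 difference (y axis, arrays labelled PSMA minus arrays labelled control, bars show the SE) of PTGS2, HPGD, PTGER2 and ABCC4 (coloured, brightest probe set) and of the 5 tested genes on each side of them in RefSeq order (grey). ABCC4 and PTGER2 lie among genes that are mostly higher, whereas PTGS2 and PLA2G4A point down among genes that are mostly higher.

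The 5 tested genes whose values over the 6 arrays lay closest to those of PTGS2, each centred on its own mean, were CXCR4, HS3ST3A1, IL1R2, PTPN20 and ARL14. Their distances, in log2 units, ran from 0.67 for CXCR4 to 1.04 for ARL14, and their log2 differences from -3.98 for HS3ST3A1 to -3.25 for ARL14. The PSMA means of CXCR4, HS3ST3A1 and PTPN20 (12.7, 8.34 and 9.57) lay under the 25th percentile, as for PTGS2. With only 2 groups, this likeness is mostly likeness of the group difference. The same 5 genes were found with the floor at the 25th percentile.

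Other genes of the pathway were read from 9 lists, none of whose genes is a member. Of 149 listed genes, 129 had a single-gene probe set and 81 were tested. Of these 26 were higher and 23 lower on arrays labelled PSMA (limma), or 60.5%, near the 63.6% of all genes tested, of which 30.1% were higher and 33.5% lower. The median log2 difference was -0.01, as over all genes tested (-0.01). The counts by list below rest on 3 to 18 tested genes each and stand beside these shares. Tested against a fold of 1.5, limma called 4 of the 81 genes, beside 526 of all 7035 genes tested. Most differences were thus small, in the lists as over all genes. The 4 were PLA2G4A, ATF3, DUSP1 and CEBPD.

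The transcripts of 2 phospholipases that can free arachidonic acid fell. PLA2G4A read 124 ± 9.65 in the control group and 49.6 ± 8.49 in the other (SD, n = 3), 2.51-fold lower (limma adjusted p = 1.5e-05). Its values on PSMA replicates 5 and 6 (43.5 and 45.9) lay below the filter, and its limma adjusted p was 0.00016 with no filter. PLA2G12A, a secreted phospholipase, fell 1.63-fold, while MGLL, the monoacylglycerol lipase that can also feed arachidonate to cyclooxygenases, rose 1.66-fold and the calcium-independent phospholipase PLA2G6 rose 1.16-fold. In all, 13 genes of arachidonate release and recycling were tested: 2 rose and 6 fell, 5 missed the threshold, and the median was -0.08.

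In the other prostanoid branches, the tested reductase and glutathione transferase genes were mostly lower, and the receptor genes were mixed. The 6 tested in the list of synthases and ketoreductases were CBR1, CBR3, AKR1C1, AKR1C3, GSTM2 and GSTM3. Of these 5 fell, 0 rose and 1 (GSTM2, log2 difference 0.14) did not pass, with a median of -0.56. Under quantile normalization 1 rose and 5 fell, and with no filter 1 rose and 6 fell of 11. GSTM3, a glutathione transferase, fell by 0.67 on the log2 scale, and AKR1C3, which makes prostaglandin F2 alpha, fell by 0.65 (limma adjusted p = 7.5e-06 and 0.00011). AKR1C and GSTM genes have near-identical relatives that probe sets may not separate. Of 3 tested receptors, PTGFR, the receptor of prostaglandin F2 alpha, fell by 0.59, the thromboxane receptor gene TBXA2R rose by 0.33, and PTGER1, the gene of EP1, missed the threshold at -0.08.

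Among further transport genes 3 of 4 rose and none fell. With the mean of each gene's probe sets, 2 rose and none fell. SLCO4A1, an organic anion carrier, rose from 740 ± 14.1 to 1032 ± 35.8 (SD, n = 3), and ABCC3, an exporter related to ABCC4, rose by 0.32 on the log2 scale (limma adjusted p = 2.7e-05 and 0.0004). In the lipoxygenase and epoxygenase branches 3 of 6 rose and 0 fell, a count that was 4 and 1 of 18 with no filter, 0 and 1 of 3 with the filter at the 75th percentile, and 3 and 1 of 6 under median centring. CYP1B1, a cytochrome P450, rose by 0.62. The epoxide hydrolase gene EPHX2 rose by 0.48, but it passed the filter through the PSMA group alone (limma adjusted p = 0.013, and 0.036 with no filter), and its difference was 0.31 without control replicate 2.

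Along the cyclic AMP path that EP2 and EP4 use, 18 genes were tested: 8 rose, 2 fell and 8 missed the threshold, and the median was 0.12. With the mean of each gene's probe sets, 6 rose and 3 fell, and the median was 0.07. The adenylyl cyclase genes ADCY9 and ADCY3 rose by 0.59 and 0.51 on the log2 scale (limma adjusted p = 4.3e-05 and 3.5e-05). The phosphodiesterase gene PDE8A, whose product degrades cyclic AMP, fell by 0.58. ADCY6 fell by 0.24, with a limma adjusted p of 0.014 that became 0.053 without PSMA replicate 4.

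Of the genes known to respond to cyclic AMP and CREB, few were tested, and those that passed went down. Of 6 tested, 4 fell, 0 rose and 2 (CITED2 and SIK1) did not pass. The share past the threshold was 66.7%, beside 63.6% of all genes tested (33.5% lower and 30.1% higher). With no filter, 6 fell and 0 rose of 13. ATF3, a stress-induced transcription factor, went from 283 ± 15.1 to 88.1 ± 4.81 (SD, n = 3), and the phosphatase gene DUSP1 from 281 ± 11.7 to 135 ± 4.80, 3.21-fold and 2.07-fold lower (limma adjusted p = 1.1e-07 and 5.8e-07). JUNB and CREM fell by 0.22 and 0.19 on the log2 scale. Many other signals act on these genes too.

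Genes of factors that act on PTGS2 transcription or mRNA stability were mixed. Of 18 tested, 8 rose, 3 fell and 7 did not pass, with a median of 0.10; with no filter 6 rose and 1 fell. NFAT5, a transcription factor of the osmotic response, rose 1.83-fold, and CEBPD, a C/EBP family factor, went from 61.3 ± 2.20 to 104 ± 2.51 (SD, n = 3; limma adjusted p = 2e-06). ZFP36, which encodes the mRNA-destabilising protein tristetraprolin, fell by 0.57 on the log2 scale. Its values on PSMA replicates 5 and 6 (51.6 and 48.1) lay below the filter, and its limma adjusted p was 0.0014 with no filter. RELA, an NF-kB subunit, fell by 0.14, with a limma adjusted p of 0.024 that became 0.088 without control replicate 2, 0.093 without PSMA replicate 5, 0.067 with no filter and 0.092 with the mean of probe sets. ELAVL1, whose product HuR stabilises PTGS2 mRNA, rose by 0.18. ZFP36L2 and ZFP36L1, of the same family as ZFP36, rose by 0.62 and 0.18, so that family did not move as one.

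Of the HSP90 partners of PTGES3, 1 rose and 2 fell. Among the 7 tested genes, FKBP4, an immunophilin co-chaperone, fell by 0.64 and the ubiquitin ligase gene STUB1 by 0.28 on the log2 scale, and 4 did not pass, among them HSP90AA1 (0.03) and HSP90AB1 (-0.09). STIP1, the adaptor between HSP70 and HSP90, rose by 0.16; its limma adjusted p of 0.026 became 0.063 to 0.091 when control replicate 2 or 3, or PSMA replicate 5 or 6, was left out. It was 0.070 with no filter, 0.052 under median centring and 0.051 with the mean of probe sets.

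**Figure D4:**
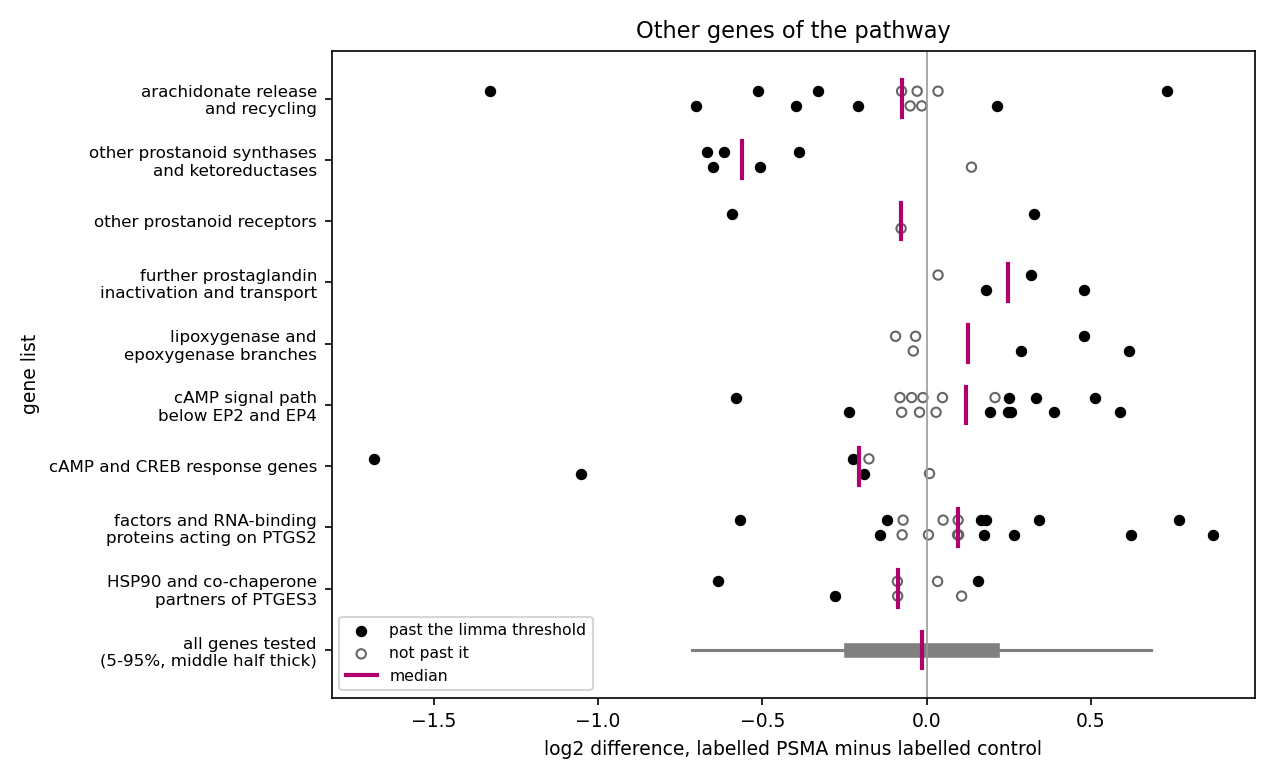
Log2 difference (x axis, arrays labelled PSMA minus arrays labelled control) of each tested gene in the 9 lists (y axis), filled where past the limma threshold and open where not, with the list median as a coloured bar; the line at the bottom shows the spread of all 7035 genes tested. The points farthest to the left are ATF3, PLA2G4A and DUSP1, and the list medians lie between -0.56 and 0.25.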

How the data were processed

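The deposited table holds 1 processed intensity for each of 22277 probe sets on each of 6 arrays, made by the authors with GCRMA, per the submitters' processing notes. Its version is not given in the sources used here, nor is any further step. No source states the scale: values ran from 3.76 to 17455, with array medians of 51.7 to 52.9, and were taken as linear. Here they were log2-transformed with no pseudocount. The 62 control probe sets and those not above the table's median on at least 3 arrays were left out of tests, which left 11303 (50.9%). The contrast of the groups was estimated by limma 3.58.1 under R 4.3.3 (lmFit then eBayes, checked on simulated data) with Benjamini-Hochberg adjustment and a threshold of 0.05; all p-values are two-sided. Probe sets below the filter took their difference and SE from a fit without it. Symbols came from GEO's platform annotation, checked against RefSeq (GRCh38.p14), and promoters from RefSeq. Python 3.11.15 with pandas 2.3.3 and matplotlib 3.10.9 made summaries and plots.

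The members and lists were chosen with earlier results of these data known. Named were all members, FOLH1, the 5 genes most like PTGS2, the nearest neighbours, and in each list the 2 largest increases and 2 largest decreases past the threshold; other genes were named after their values were seen. With 3 arrays a group, their number limits the precision.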

Additional observations from a re-analysis of the deposited data

How the results depend on the processing

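The 6 member probe sets with no overlap and at least a 2-fold difference numbered 6 under the floor, a pseudocount of 16, median centring, quantile normalization and each left-out array, and the differences of PTGES3 and SLCO2A1, whose groups overlap, turned sign without PSMA replicate 6 and without PSMA replicate 4, respectively. With the pseudocount, 5 of the 17 member differences shrank or grew by more than the replicate SD, and with the floor 1 did. The filter at the 75th percentile, which tests fewer genes, gave 3995 probe sets, 2773 genes and 30 pathway genes past the threshold, in place of 6846, 4476 and 49. Tested against a fold of 1.5, these were 747, 526 and 4. Of the 9 list counts, 2 moved by over 1.5 times with no filter, 5 with the filter at the 75th percentile and all 9 against a fold of 1.5. Without replicates one at a time, 44 to 49 pathway genes and 3999 to 4442 genes passed. No paired analysis was possible because the groups share no replicate numbers. Signal near background limits PTGS1, SLCO2A1 and the size of the PTGS2 difference.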
